A study of Mus musculus with 12 samples.

Results

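Integrins and the adaptors that switch them on were examined in the brains of mice with stroke: 34 genes of the 49315 in the count table. The members were taken by gene symbol, as the 18 genes whose symbols name an integrin alpha subunit, the 8 that name a beta subunit and 8 adaptors (Fermt1, Fermt2, Fermt3, Tln1, Tln2, Ilk, Vcl and Parvg), with a minimum of 20 counts over all libraries. All 34 matching genes reached that minimum, and 32 passed the expression filter of the test. Itgad, with 84 counts in all, and Itgb6, with 20, did not pass it.

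The samples were 12 brains taken 14 d post-stroke, 6 from mice transplanted with WT bone marrow (BM) cells and 6 from mice transplanted with Tet2-KO BM cells. All recipients were male CD45.1 mice of 8 to 12 weeks with intact Tet2, irradiated with the head shielded, and all of them received 90% CD45.1 marrow with intact Tet2. The remaining 10% came from CD45.2 donors of 8 to 14 weeks, Tet2+/+ littermates in the WT group and Tet2-/- mice in the Tet2-KO group. Transient right middle cerebral artery occlusion of 30 min followed 8 to 10 weeks after transplantation in both groups. Every brain is therefore a mixture of recipient cells, which carry Tet2, with blood-derived cells of which only some lack it, so the level of Tet2 in the tissue does not check the labels. The treatment entry of the labels names control cells for every mouse, and the groups were taken from the titles and genotypes. The study's text names the tissue both as whole brains and as brain hemispheres, so the extent of tissue behind each level is not certain.

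An integrin is a pair of an alpha and a beta chain that spans the cell membrane, binds matrix or a partner protein on another cell outside, and ties to the actin cytoskeleton inside. Talins and kindlins bind the tail of the beta chain and turn the receptor from a resting into a binding state, and integrin-linked kinase, parvins and vinculin join it to actin. Leukocytes carry the beta chain Itgb2 (CD18), with which they adhere to vessels and take up complement-coated material, and microglia carry it as well. Endothelium, fibroblasts and the other glia mostly use pairs built on Itgb1 or Itgav.

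Levels are TMM-scaled counts relative to library size (CPM), and log2 fold changes set Tet2-KO against WT mice, so that a negative value is a lower level with Tet2-KO BM cells. They come from the quasi-likelihood F test of edgeR with Benjamini-Hochberg adjustment over 20290 genes. Total counts per library ranged from 12000261 to 15340787 in the WT group and from 12625047 to 21049763 in the Tet2-KO group. No member passed an adjusted p of 0.05, at which 5 genes or 0.0246% of all tested genes passed. At an unadjusted p below 0.05, 16 of 32 members were lower with Tet2-KO BM cells, beside 12.2% of all tested genes, and 0 members were higher, beside 10.8%. The fold change lay below 0 in 28 of 32 members, beside 47.7% of all tested genes, and its median was -0.34 over the members and 0.01 over all tested genes.

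Single mice stood apart in both groups. Of the 16 lower members, replicate 2 of the WT group was the highest WT mouse in 15, and replicate 5 of the Tet2-KO group was the highest Tet2-KO mouse in 14. Tet2-KO replicates 1, 3 and 6 lay below every WT mouse in all 16, replicate 2 in 15, replicate 4 in 10 and replicate 5 in 0. These 16 genes were picked from the same mice for being lower, which by itself places many Tet2-KO values low. The counts per mouse describe the genes picked and are no further support for a lower level. In 0 of 32 members were the groups fully separated, beside 0.641% of all tested genes with every Tet2-KO mouse below every WT mouse and 0.453% with every one above. Without Tet2-KO replicate 5, 11 members passed the adjusted threshold as lower (edgeR), beside 7.3% of all tested genes: Itga4, Itga8, Itgb7, Itgal, Itga6, Itgax, Fermt3, Itga5, Itgb1, Itga1 and Itgae. When any other single mouse was left out, 0 members passed. Without both WT replicate 2 and Tet2-KO replicate 5, 9 members passed as lower, beside 4.94%. With Tet2-KO replicate 5 alone left out, 9 members had every remaining Tet2-KO mouse under the WT range, beside 4.78% of all tested genes.

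The call also depended on the test. The study itself used the DESeq2 Wald test at an adjusted p below 0.05 and reports that most genes called were lower with Tet2-KO BM cells. In either direction, that test called 1489 of the tested genes here and 921 when run on all genes with a count. With edgeR it was 5. With the DESeq2 Wald test, 6 members passed an adjusted p of 0.05 as lower, beside 4.63% of all tested genes. These were Itga4, Itgb7, Itga5, Itga6, Itga9 and Itgae. With limma-voom and quality weights 11 members passed, beside 6.38%. With DESeq2 run on all genes that had a count 5 passed (Itga4, Itga6, Itgb7, Itga5 and Itgb1), beside 1.9% of those 37685 genes. These include genes that DESeq2 gave no adjusted p, such as Itgad and Itgb6. The 1.9% therefore has another base than the 4.63% and is not set against it. Itga4, Itga5, Itga6, Itgae and Itgb7 passed with both tools and with edgeR when Tet2-KO replicate 5 was left out.

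The 3 largest fold changes of the tested members were those of leukocyte integrin subunits, Itgax, Itgal and Itgb2. Of the 8 subunits 7 could be tested. All 7 were lower at an unadjusted p below 0.05, beside 12.2% of all tested genes. Their log2 fold changes lay between -1.24 and -0.53, with a median of -0.86 beside 0.01 over all tested genes. In bulk tissue, fewer cells of a type and less RNA per cell cannot be told apart. From stained brain sections of the same time after stroke, the study's text reports similar numbers of macrophages and of T cells in both groups. Whether those sections came from the mice sequenced here is not stated.

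Itgb2 (ENSMUSG00000000290, chromosome 10, 77530252 to 77565708), the shared beta chain of the leukocyte receptors, lay at 49.3 CPM in the lowest WT mouse, 53.4 at the median and 114.6 in the highest, and at 9.11, 27.1 and 63.6 CPM with Tet2-KO BM cells. All Tet2-KO mice but replicate 5 lay under the WT range, so the groups overlapped through that mouse alone. The means were 65.2 ± 25.2 CPM (SD, n = 6) and 32.1 ± 19.4 CPM (SD, n = 6), a log2 fold change of -1.03 (SE 0.41, edgeR adjusted p = 0.176). Without WT replicate 2 it was -0.79 (edgeR adjusted p = 0.374), and without Tet2-KO replicate 5 it was -1.33 (edgeR adjusted p = 0.0506).

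Itgb2 pairs with 4 alpha chains, whose genes all lie on chromosome 7. Itgal is separated by 728 kb from Itgam, and Itgam, Itgax and Itgad follow each other on the plus strand with gaps of 11.1 kb and 3.72 kb. Itgax (CD11c, 128129547 to 128150657), a chain of activated microglia, macrophages and dendritic cells that takes part in complement binding, lay between 17.8 and 46.8 CPM (median 23.4) in WT mice and between 4.03 and 28.9 (median 8.55) in Tet2-KO mice. Tet2-KO replicate 5 was above 5 of the 6 WT mice, and the other 5 Tet2-KO mice were below all of them. The log2 fold change was -1.24 (SE 0.46, edgeR adjusted p = 0.159), and without WT replicate 2 it was -1.01.

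Itgal (CD11a, 127296260 to 127335138), the alpha chain of the LFA receptor by which lymphocytes and monocytes bind ICAM proteins, ranged from 7.42 to 14.8 CPM (median 8.79) in WT mice and from 0.991 to 9.73 (median 3.56) in Tet2-KO mice. Again only replicate 5 of the Tet2-KO group reached into the WT range. The log2 fold change of -1.23 (SE 0.42) had an edgeR adjusted p of 0.142, and of 0.0189 without that mouse. Itgam (CD11b, 128062640 to 128118491), which microglia, monocytes and neutrophils all carry as complement receptor, differed less, from 21.4 to 41.8 CPM (median 25.3) in WT mice and from 7.99 to 25.8 (median 17.1) in Tet2-KO mice. Replicates 4 and 5 of the Tet2-KO group lay within the WT range, and the log2 fold change was -0.65 (SE 0.27, edgeR adjusted p = 0.184). Itgam shares 3450 exonic bases with an annotated gene on the same strand, Gm49368, so its count of uniquely assigned reads is uncertain. Itgad (CD11d), the last partner, had only 3 to 16 counts per library, 31 over the WT mice and 53 over the Tet2-KO mice, and was not tested.

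**Figure D1:**
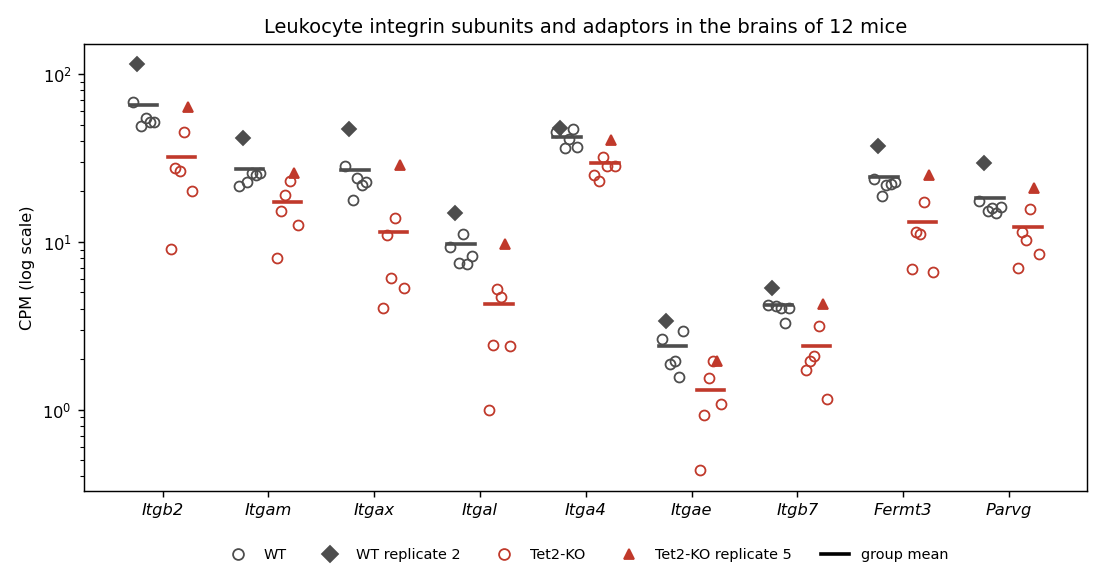
CPM (vertical log axis) of 7 leukocyte integrin subunits and the adaptors Fermt3 and Parvg in each of 12 brains, with 6 WT mice in grey and 6 Tet2-KO mice in red and horizontal lines at the group means. WT replicate 2 (diamond) is the highest WT mouse in all 9 genes, and Tet2-KO replicate 5 (triangle) is the highest Tet2-KO mouse in all 9 and overlaps the WT mice.

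Itga4 (ENSMUSG00000027009, chromosome 2, 79255426 to 79333123), which pairs with Itgb1 or Itgb7 and binds VCAM on inflamed endothelium, had the smallest p of all members. It lay at 36.4 CPM in the lowest WT mouse, 43.0 at the median and 47.9 in the highest, and at 23.0, 28.2 and 40.3 CPM with Tet2-KO BM cells. Only replicate 5 of the Tet2-KO group reached the WT range. The log2 fold change was -0.53 (SE 0.12). The edgeR p was 0.000727 and its adjusted p 0.11, and the adjusted p was 0.00295 in DESeq2 and 0.0159 in limma-voom. Itga4 shares 1124 exonic bases with Cerkl on the opposite strand, which had 377 counts in all against the 6223 of Itga4.

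Itgb7 (chromosome 15, 102215995 to 102231944), the beta chain of the gut-homing lymphocyte receptor, was low, with 15 to 74 counts per library. It ranged from 3.30 to 5.31 CPM (median 4.11) in WT mice and from 1.15 to 4.24 (median 2.01) in Tet2-KO mice, again overlapping through replicate 5. Its log2 fold change was -0.82 (SE 0.23, edgeR adjusted p = 0.12). Itgae (CD103), its partner in the receptor for E-cadherin that marks resident T cells, lay between 1.57 and 3.37 CPM (median 2.29) in WT mice and between 0.434 and 1.96 (median 1.31) in Tet2-KO mice, where 4 mice were below all WT mice. The log2 fold change was -0.86 (SE 0.29, edgeR adjusted p = 0.132).

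The promoter windows of 4 leukocyte subunits are shown because these genes had lower means together, and their sequences can be compared. Each holds 300 bases, most of them before the start site and the last ones after it, 5′ to 3′ on the strand of the gene, in RefSeq's GRCm38.p6. Capitals mark each copy of the core GAGGAA of sites bound by PU.1, the ETS factor of the myeloid lineage, or of its reverse complement TTCCTC.
Itgam promoter (chr7:128062390-128062689, plus strand): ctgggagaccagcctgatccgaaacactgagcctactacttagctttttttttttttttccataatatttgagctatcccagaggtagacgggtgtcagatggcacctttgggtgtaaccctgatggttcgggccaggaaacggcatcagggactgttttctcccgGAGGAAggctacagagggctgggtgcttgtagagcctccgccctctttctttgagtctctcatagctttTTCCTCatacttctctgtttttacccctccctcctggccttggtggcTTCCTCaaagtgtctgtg
Itgax promoter (chr7:128129300-128129599, plus strand): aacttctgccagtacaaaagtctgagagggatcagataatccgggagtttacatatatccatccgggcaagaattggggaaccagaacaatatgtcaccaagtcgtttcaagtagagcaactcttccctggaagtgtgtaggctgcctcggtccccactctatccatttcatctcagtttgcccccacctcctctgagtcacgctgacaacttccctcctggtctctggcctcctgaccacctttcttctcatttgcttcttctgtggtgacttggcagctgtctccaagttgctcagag
Itga4 promoter (chr2:79255176-79255475, plus strand): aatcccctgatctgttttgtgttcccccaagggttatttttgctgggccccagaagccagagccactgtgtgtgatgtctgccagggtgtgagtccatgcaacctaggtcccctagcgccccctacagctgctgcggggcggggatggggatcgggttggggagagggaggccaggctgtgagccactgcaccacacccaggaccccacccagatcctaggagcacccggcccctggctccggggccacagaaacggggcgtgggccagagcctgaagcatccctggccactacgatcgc
Itgb7 promoter (chr15:102231886-102232185, minus strand): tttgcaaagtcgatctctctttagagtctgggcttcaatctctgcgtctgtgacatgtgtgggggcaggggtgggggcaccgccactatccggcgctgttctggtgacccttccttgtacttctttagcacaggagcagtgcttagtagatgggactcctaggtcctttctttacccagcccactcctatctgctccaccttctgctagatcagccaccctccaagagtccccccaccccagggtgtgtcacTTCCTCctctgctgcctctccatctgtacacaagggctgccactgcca

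These 6 letters occur 3 times in the Itgam window, once in that of Itgb7 and in neither of the others. Of all 32851 promoter windows, 28.3% hold the letters on either strand. For 25 of the 34 members 29 windows were found, and 11 of these windows (37.9%) hold the letters, among them 1 each of Itgam, Itgb7 and Parvg. Of the leukocyte subunits, Itgb2, Itgal, Itgae and Itgad had no matched window. A match of letters is a description and no evidence of binding.

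Kindlin and parvin also have forms of blood cells. Fermt3 (chromosome 19, 6998958 to 7019469), the kindlin that leukocytes and platelets need to activate integrins, lay between 18.8 and 37.4 CPM (median 22.4) in WT mice and between 6.62 and 25.2 (median 11.3) in Tet2-KO mice. Its lowest 5 Tet2-KO values were under the WT range, and its log2 fold change was -0.90 (SE 0.32, edgeR adjusted p = 0.149). Parvg (chromosome 15, 84324026 to 84342978), the parvin of blood cells, lay between 14.8 and 29.6 CPM (median 16.0) against 7.0 to 20.9 (median 10.9), with Tet2-KO replicates 4 and 5 inside the WT range. Its log2 fold change of -0.57 (SE 0.27) had an unadjusted p of 0.0578 in edgeR. Over the 9 leukocyte subunits and adaptors tested, the summed level was 173.8 to 341.5 CPM in WT mice, with replicate 2 highest, and 63.1 to 220.6 CPM in Tet2-KO mice, with replicate 5 highest. Without replicate 5 the highest Tet2-KO mouse was at 153.0 CPM.

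Markers of cells that carry these genes were also measured. The summed level of 8 macrophage and monocyte markers ranged from 467.4 to 1178.9 CPM in WT mice and from 45.3 to 596.2 CPM in Tet2-KO mice, and all 8 were lower at an unadjusted p below 0.05 in edgeR (median log2 fold change -1.71). Tet2-KO replicate 5, at 596.2 CPM, was the one Tet2-KO mouse in the WT range of that sum, as it was for the leukocyte integrins. The neutrophil markers summed to 7.06 to 20.7 CPM in WT mice and 1.77 to 6.12 CPM in Tet2-KO mice, so that here replicate 5, the highest, also lay under the WT range. Of 8 neutrophil markers 4 could be tested and all 4 were lower. Ly6g, Camp, Ngp and Retnlg did not pass the expression filter, and Ly6g had no more than 3 counts in all. The neutrophil sum is therefore a low level. T cell markers summed to 11.4 to 17.9 CPM and 5.02 to 11.8 CPM, with 4 of 5 tested markers lower. Skap1, on this list, is also on the list of integrin activation and leukocyte signalling read below.

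Of 8 homeostatic microglia markers only 1 was lower at an unadjusted p below 0.05, with a median log2 fold change of -0.21. Their sum ranged from 643.8 to 1162.0 CPM in WT mice and from 319.0 to 841.1 CPM in Tet2-KO mice. The platelet markers, a list that holds Itga2b itself, summed to 10.1 to 13.8 CPM and 11.5 to 13.9 CPM, with 1 of 4 tested lower and 1 higher. The part of any of these cell types in the integrin values was not tested. No marker of these lists was at 0 in every library.

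Ratios within a mouse were used to ask whether partner genes differed by unequal amounts. They are differences of log2 CPM with 0.1 CPM added, so their absolute size also depends on gene length and only the change between groups is read. Of 20 ratios 1 passed an adjusted p of 0.05 in an exact two-sided permutation test (n = 6 per group), Itgad to Itgb2. It was -7.57 to -6.14 in WT mice and -6.05 to -4.98 in Tet2-KO mice, a difference of 1.55 (exact permutation p = 0.00216, the smallest that these groups can give, adjusted p = 0.0433). This ratio rests on the 84 counts of Itgad, and with 0.5 CPM added no ratio passed. Itgad shares 890 exonic bases with other genes, among them Cox6a2 on the opposite strand, which had more counts than Itgad. The strand setting of the counting is not given, so the 84 counts cannot be assigned to Itgad with certainty.

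Set against the summed homeostatic microglia markers, Itgb2 was at -3.60 ± 0.20 (SD, n = 6) in WT mice and -4.38 ± 0.48 (SD, n = 6) in Tet2-KO mice. The difference of -0.78 had an exact permutation p of 0.00866 (adjusted 0.0577), with 5 of 6 Tet2-KO mice under the WT range. Itgax differed by -1.06 against the same markers (exact permutation p = 0.00866, adjusted 0.0577) and Itgam by -0.29 (exact permutation p = 0.0368, adjusted 0.0818). Within the beta 2 family the ratio of Itgam to Itgb2 was higher with Tet2-KO BM cells by 0.49 (exact permutation p = 0.0325, adjusted 0.0818), and those of Itgax and Itgal to Itgb2 differed by -0.28 and -0.26 (exact permutation p = 0.147 and 0.201). Without Tet2-KO replicate 5, 11 ratios passed the adjusted threshold, without replicate 4 it was 8, and without replicate 1, 2, 3 or 6 it was 0.

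Among the subunits outside the list of leukocyte chains, those that pair with Itgb1 were mixed. Itgb1 (chromosome 8, 128685654 to 128733200), the beta chain with the most partners, ranged from 83.9 to 129.9 CPM (median 88.2) in WT mice and from 52.9 to 91.6 (median 66.6) in Tet2-KO mice. Tet2-KO replicates 4 and 5 overlapped the WT mice, and the log2 fold change was -0.45 (SE 0.15, edgeR adjusted p = 0.133). The ratio of Itgb2 to Itgb1 was lower by 0.74 on the log2 scale with Tet2-KO BM cells, -0.60 ± 0.24 against -1.35 ± 0.68 (SD, n = 6, exact permutation p = 0.0173, adjusted 0.0577).

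Itga6 (chromosome 2, 71745616 to 71858416), a laminin receptor chain of endothelium and of oligodendrocyte lineage cells, lay at 68.6 CPM in the lowest WT mouse, 81.3 at the median and 112.8 in the highest, and at 37.2, 49.5 and 76.2 CPM in Tet2-KO mice. Here too, 5 of 6 mice with Tet2-KO BM cells lay under the lowest WT mouse. The log2 fold change was -0.63 (SE 0.18, edgeR adjusted p = 0.123), with an adjusted p of 0.0297 in DESeq2 and 0.0203 in limma-voom. The ratio of Itga6 to Itgb1 differed by -0.20 (exact permutation p = 0.013, adjusted 0.0577). The other laminin-binding chains differed little, with log2 fold changes of -0.05 for Itga3, -0.09 for Itga7 and -0.09 for Itgb4, and standard errors of 0.07, 0.09 and 0.11.

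Of the 4 collagen-binding chains 1 was lower at an unadjusted p below 0.05, beside 12.2% of all tested genes. Itga1, found on vessels and pericytes, ranged from 19.3 to 31.1 CPM (median 21.5) in WT mice and from 12.8 to 22.3 (median 16.7) in Tet2-KO mice, with 4 Tet2-KO mice under the WT range and a log2 fold change of -0.41 (SE 0.15, edgeR adjusted p = 0.148). Itga10 was at 4.94 ± 0.774 and 4.89 ± 0.673 CPM (SD, n = 6), Itga11 at 6.55 ± 0.844 and 6.13 ± 0.83 CPM, and Itga2 at 2.14 ± 0.856 and 2.31 ± 0.519 CPM in WT and Tet2-KO mice. Itga10 shares 1739 exonic bases with Gm42957 on its own strand. None of these 3 had an unadjusted p below 0.05.

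Chains grouped here as binding fibronectin or ligands with the RGD motif, not all of them through that motif, also split. Itga5, the main fibronectin receptor chain of endothelium and macrophages, lay between 19.6 and 34.1 CPM (median 20.8) in WT mice and between 10.2 and 22.5 (median 14.8) in Tet2-KO mice, where only replicate 5 reached the WT range. The log2 fold change was -0.62 (SE 0.20, edgeR adjusted p = 0.132), and the DESeq2 adjusted p was 0.0248. Itga9 ranged from 12.4 to 19.5 CPM and from 9.31 to 12.8 CPM, with a log2 fold change of -0.38 (SE 0.12, edgeR adjusted p = 0.126). Itga8, a receptor chain of pericytes and fibroblasts, was at 20.6 ± 1.25 and 16.8 ± 3.68 CPM (SD, n = 6), and its one Tet2-KO mouse above the WT median, replicate 5 at 23.7 CPM, was the highest of all 12 mice. Its log2 fold change was -0.30 (SE 0.11, edgeR adjusted p = 0.15), and -0.42 with an adjusted p of 0.00926 without that mouse.

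Itgav and its beta partners activate latent TGF-beta in the brain, Itgb8 in glia above all. Itgav was at 160.0 ± 16.6 CPM (SD, n = 6) in WT mice and 148.4 ± 8.07 CPM in Tet2-KO mice, a log2 fold change of -0.11 (SE 0.06, edgeR adjusted p = 0.319), or -0.05 without WT replicate 2. Itgb8, between 127.7 and 155.4 CPM in WT mice and between 123.4 and 146.6 CPM in Tet2-KO mice, had a log2 fold change of -0.04 (SE 0.06), which was 0.0007 without WT replicate 2. Itgb5, a partner of Itgav abundant in microglia, ranged from 116.0 to 210.7 CPM (median 121.8) in WT mice and from 52.9 to 138.8 (median 83.8) in Tet2-KO mice. Tet2-KO replicates 1, 2, 3 and 6 lay under the WT range, replicates 4 and 5 did not, and the log2 fold change was -0.58 (SE 0.25, edgeR adjusted p = 0.20).

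The ratio of Itgav to Itgb5 was higher by 0.52 with Tet2-KO BM cells (exact permutation p = 0.0411, adjusted 0.0823, n = 6 per group), and that to Itgb8 differed by -0.07 (exact permutation p = 0.242). Itgb3, which pairs with Itgav on vessels and with Itga2b on platelets, was at 9.36 ± 1.07 and 7.53 ± 1.92 CPM (SD, n = 6), with a log2 fold change of -0.31 (SE 0.15, edgeR adjusted p = 0.233). Itga2b, the platelet chain, had the same mean of 2.68 CPM in both groups. Itgb6, an epithelial chain, had 13 counts over the WT mice and 7 over the Tet2-KO mice. Over the 17 tested subunits outside the list of leukocyte chains the median log2 fold change was -0.11. At an unadjusted p below 0.05, 7 of them were lower, beside 12.2% of all tested genes. The division is one of naming, since Itga5, Itgb1 and Itgb5, counted here, are also found on macrophages, leukocytes or microglia. They were among those that were lower.

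**Figure D2:**
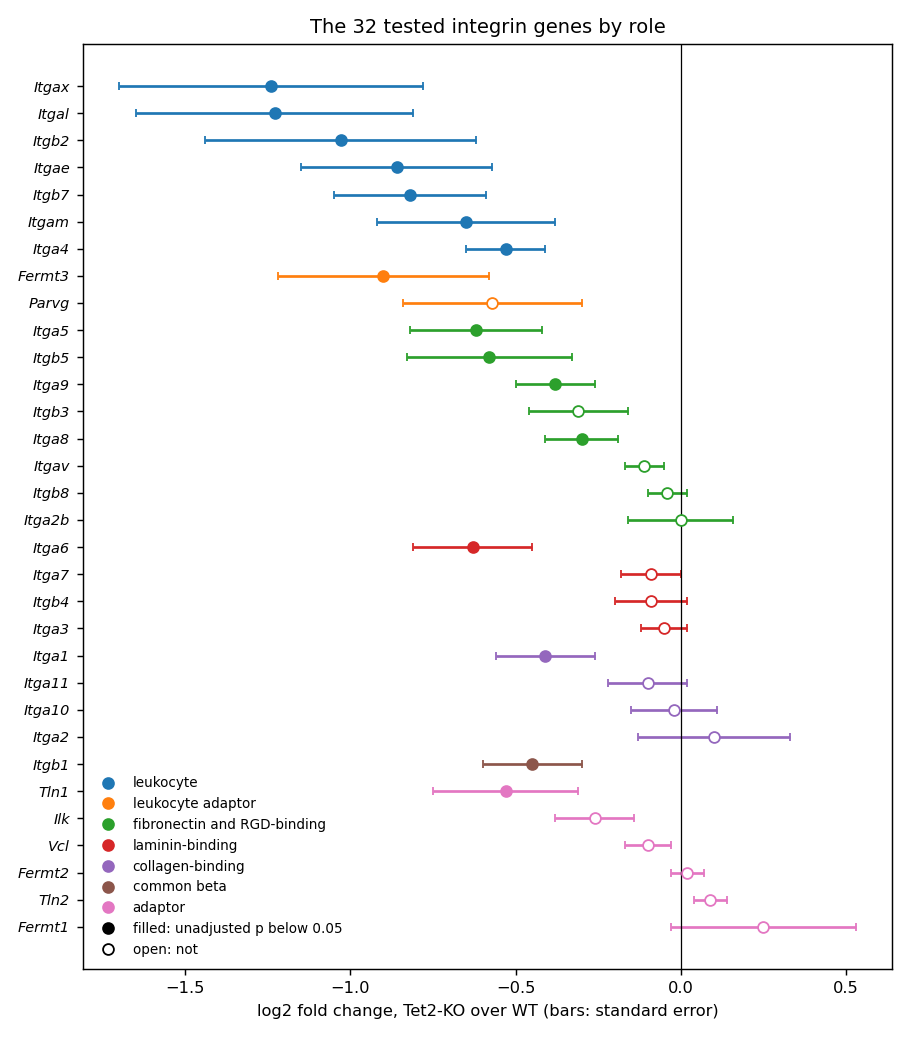
Log2 fold change of Tet2-KO over WT (horizontal axis, bars are standard errors, edgeR, 6 mice per group) for the 32 tested genes ordered by role, with filled points at an unadjusted p below 0.05. The 7 leukocyte subunits lie between -1.24 and -0.53, and the 17 other subunits tested between -0.63 and 0.10.

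Of the adaptors that most cells express, only Tln1 was lower at an unadjusted p below 0.05, beside 12.2% of all tested genes. Tln1 (chromosome 4, 43531519 to 43562691), the talin of blood and vascular cells, ranged from 182.3 to 311.1 CPM (median 195.3) in WT mice and from 95.7 to 220.7 (median 144.5) in Tet2-KO mice. Tet2-KO replicates 4 and 5 overlapped the WT mice, and the log2 fold change was -0.53 (SE 0.22, edgeR adjusted p = 0.184). Its exons share 360 bases with Creb3 on the opposite strand.

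Tln2, the talin abundant in neurons, was at 195.9 ± 11.6 CPM (SD, n = 6) in WT mice and 208.2 ± 10.1 CPM in Tet2-KO mice, a log2 fold change of 0.09 (SE 0.05, edgeR adjusted p = 0.31). The neuron markers summed to 2409.3 to 3640.0 CPM in WT mice, lowest in replicate 2, and to 3190.0 to 4452.2 CPM in Tet2-KO mice. All 5 were higher at an unadjusted p below 0.05 in edgeR (median log2 fold change 0.28), and their part in the value of Tln2 was not tested. The ratio of Tln1 to Tln2 differed by -0.65 between the groups (exact permutation p = 0.0346, adjusted 0.0818, n = 6 per group), and that of Fermt3 to Fermt2 by -1.05 (exact permutation p = 0.0152, adjusted 0.0577). Fermt2, the kindlin of most other tissues, was at 86.4 ± 5.76 and 87.8 ± 3.09 CPM (SD, n = 6), a log2 fold change of 0.02 with a standard error of 0.05.

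Fermt1, the epithelial kindlin, had 7 to 28 counts per library and a log2 fold change of 0.25 (SE 0.28). Ilk was at 6.15 ± 0.827 and 5.11 ± 0.791 CPM (SD, n = 6), a log2 fold change of -0.26 (SE 0.12, edgeR adjusted p = 0.222). Vcl was at 37.7 ± 2.5 and 35.1 ± 3.49 CPM (SD, n = 6), with a log2 fold change of -0.10 (SE 0.07). Most of the Ilk exons, 2461 bases, are shared with Rrp8 and Taf10 on the opposite strand, and 2090 bases of Vcl with Ap3m1. The strand setting of the counting is not given in the sources used here, so reads from these pairs cannot be assigned with certainty.

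**Figure D3:**
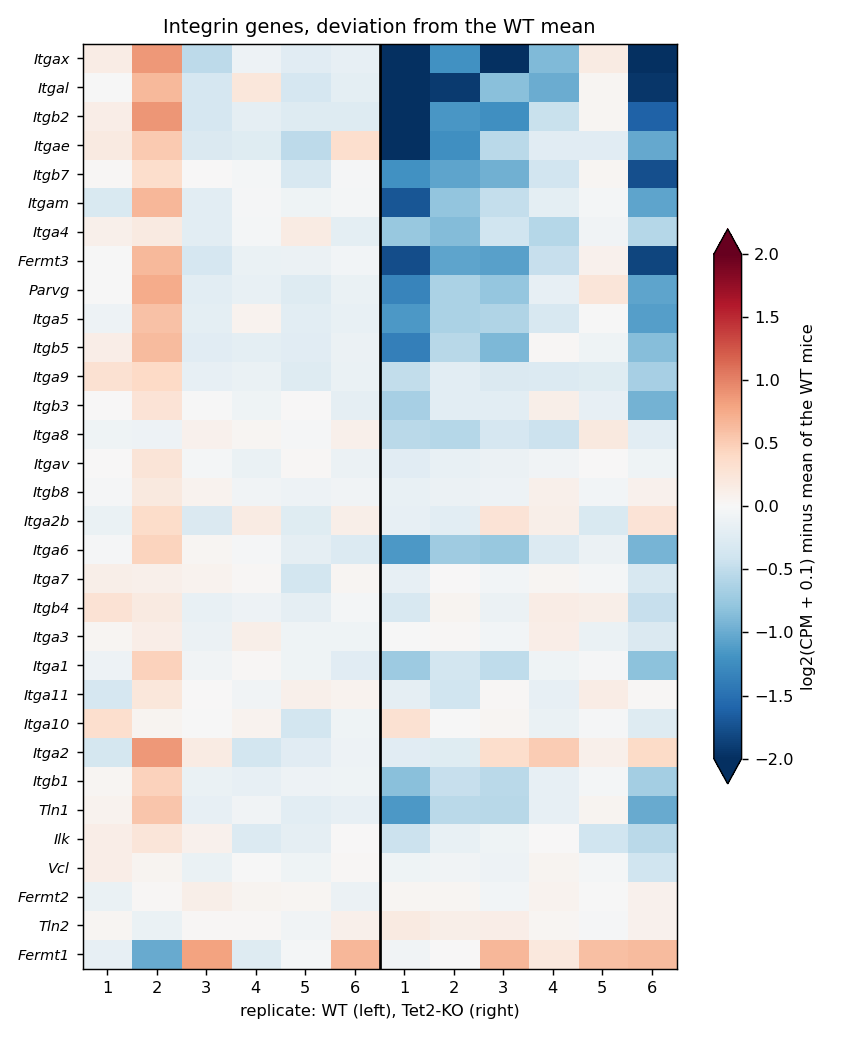
Colour gives log2(CPM + 0.1) minus the mean of the 6 WT mice for each of the 32 tested genes (rows, in the order of the plot of fold changes) in each mouse (columns, WT left and Tet2-KO right), with colours saturating at 2 units on either side. Tet2-KO replicates 1 and 6 are lowest in most leukocyte genes, and replicate 5 resembles the WT columns in them.

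Levels were set side by side per kilobase of exon, since CPM grows with gene length. In WT mice Itgb5 was the most abundant beta chain at 39.3 CPM per kb, followed by Itgb1 at 23.4, Itgb2 at 21.3 and Itgb8 at 12.4. With Tet2-KO BM cells the order was Itgb5 (26.3 CPM per kb), Itgb1 (17.2), Itgb8 (12) and Itgb2 (10.5). The order of the last 2 was within the spread of the Tet2-KO mice, since Itgb2 was above Itgb8 per kb in replicates 4 and 5, as in all 6 WT mice. As a share of all beta chain transcripts per kb, Itgb2 made up 20.2% ± 2.5 (SD, n = 6) in WT mice and 13.6% ± 4.90 in Tet2-KO mice, and Itgb8 made up 12.3% ± 1.82 and 17.9% ± 4.63. The shares of Itgb5 (37.9% ± 1.16 and 36.2% ± 3.33) and Itgb1 (22.9% ± 1.13 and 24.5% ± 2.12) differed by less than 1 SD of the Tet2-KO mice. Because shares add up to a whole, the larger share of Itgb8 came with a level of 12.4 and 12 CPM per kb in the groups.

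Among alpha chains Itgav led in both groups, with 24.3% ± 1.71 of the alpha chain transcripts per kb in WT mice and 29.97% ± 3.66 in Tet2-KO mice, followed by Itga6 with 15.0% ± 1.07 and 12.6% ± 1.40. In WT mice the next 3, Itga3 (9.13% ± 0.843), Itgax (8.89% ± 1.87) and Itgam (8.65% ± 1.11), did not differ beyond their spread. The rank of Itgam is uncertain, since 3450 of the 5024 exonic bases by which its level was divided are shared with Gm49368 on the same strand. In Tet2-KO mice Itga3 made up 11.7% ± 2.07, Itgam 7.13% ± 1.76 and Itgax 4.72% ± 2.92.

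**Figure D4:**
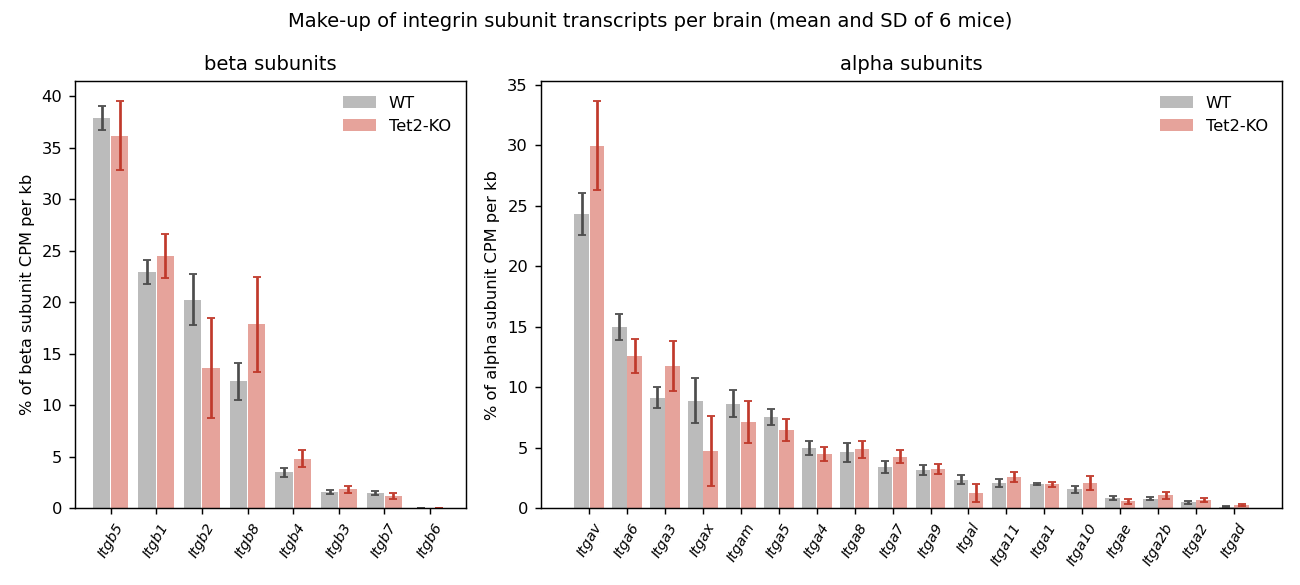
Bars give the mean share (in %, bars of error are SD, 6 mice per group) of each gene in the summed CPM per kb of all beta chains (left) and all alpha chains (right), with WT in grey and Tet2-KO in red. Itgb2 and Itgax have smaller mean shares with Tet2-KO BM cells, and Itgb8 and Itgav larger ones.

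The genes around the receptors were read from 6 lists with 87 genes, of which 85 were tested. None passed an adjusted p of 0.05 in edgeR, 40 were lower at an unadjusted p below 0.05 and 2 were higher, beside 12.2% and 10.8% of all tested genes. In the list counts that follow, lower and higher mean past that unadjusted threshold. Of 16 genes of integrin activation and leukocyte signalling, 7 were lower and 0 higher (median log2 fold change -0.38). Rap1b, the small GTPase that recruits talin, was at 63.2 ± 5.53 CPM (SD, n = 6) in WT and 47.2 ± 9.02 CPM in Tet2-KO mice, a log2 fold change of -0.42 (SE 0.11, edgeR adjusted p = 0.11). Its close relative Rap1a was at 26.3 ± 2.70 and 22.5 ± 2.06 CPM, with a log2 fold change of -0.23, and the adaptor Skap2 had one of -0.65.

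Of 18 focal adhesion partners 7 were lower and 1 higher (median -0.13). The largest difference among those named was in Fblim1, a binding partner of filamin and kindlin, at 20.7 ± 5.92 and 9.61 ± 5.46 CPM (SD, n = 6) with a log2 fold change of -1.11 (SE 0.35, edgeR adjusted p = 0.128). Lims1 and Rsu1, which form a complex with integrin-linked kinase and parvin, had log2 fold changes of -0.31 and -0.28. The kinase Src, which is abundant in neurons, was the one that was higher, by 0.16 (SE 0.05, edgeR adjusted p = 0.132).

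Of 23 matrix ligands 13 were lower and 0 higher, with a median of -0.48. Thbs1, a matrix glycoprotein that binds several integrins, was at 72.1 ± 28.0 and 19.0 ± 14.2 CPM (SD, n = 6), a log2 fold change of -1.94 (SE 0.45, edgeR adjusted p = 0.11), and Fn1, the ligand of Itga5 and Itga4, at 473.9 ± 140.1 and 220.7 ± 112.8 CPM, one of -1.10 (SE 0.31). Lamb1, a laminin chain, differed by -0.38. The 6 fibroblast and perivascular markers, cells that make such matrix, were all lower as well, with sums of 566.0 to 1209.2 CPM in WT mice and 178.9 to 694.6 CPM in Tet2-KO mice, and 1 matrix ligand, Col1a1, is on both lists. Their part was not tested. The 6 endothelial markers had a median of -0.13, with 2 lower.

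Of 12 cell-surface and complement ligands of leukocyte integrins, 10 were tested, 3 were lower and 1 higher (median -0.31). Icam1, the ligand of Itgal and Itgam on inflamed vessels, was at 18.3 ± 4.30 and 8.56 ± 4.60 CPM (SD, n = 6), with every Tet2-KO mouse below every WT mouse, as in 0.641% of all tested genes, and a log2 fold change of -1.10 (SE 0.33, edgeR adjusted p = 0.124). C3, whose fragments are bound by Itgam and Itgax with Itgb2, was at 149.1 ± 104.0 and 41.4 ± 39.6 CPM, a log2 fold change of -1.84 (SE 0.68, edgeR adjusted p = 0.158). Cdh1, the E-cadherin bound by Itgae, differed by -0.48, and Thy1, a surface protein of neurons and T cells, was higher by 0.21 (SE 0.08, edgeR adjusted p = 0.146).

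Of the 7 genes of latent TGF-beta, the cargo that Itgav receptors release, 4 were lower (median -0.38). The 2 anchors of latent TGF-beta on cells both had lower means with Tet2-KO BM cells. Lrrc32 was at 13.5 ± 3.76 and 7.75 ± 1.77 CPM (SD, n = 6, log2 fold change -0.80, SE 0.19, edgeR adjusted p = 0.11), and Nrros, the anchor of microglia and macrophages, at 31.1 ± 9.25 and 15.6 ± 7.0 CPM (log2 fold change -1.0, SE 0.30, edgeR adjusted p = 0.124). Ltbp1, which ties the complex to matrix, differed by -0.38. Of 11 tetraspanins and lateral partners, 6 were lower (median -0.48), with log2 fold changes of -0.48 for Cd82, -0.26 for Slc3a2 and -1.01 for Plaur, the urokinase receptor.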

How the data were processed

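Ribosomal RNA was depleted, and the authors trimmed reads with Trimmomatic 0.36, aligned them to mm10 with STAR 2.5.2b and assigned uniquely mapped exonic reads with featureCounts (Subread 1.5.2), tools and build as in the submitters' processing notes. They deposited raw counts per gene for 49315 genes with no normalization, and 48970 identifiers had a symbol in GENCODE M21. Groups came from the titles. From the deposited counts, filterByExpr, TMM, glmQLFit (robust) and glmQLFTest of edgeR 4.0.16 in R 4.3.3 were run on the whole table, with Benjamini-Hochberg adjustment at 0.05. A standard error (SE) is the absolute log2 fold change over the root of the F statistic. Gene lengths are merged GENCODE M21 exons. Ratios used exact two-sided permutation in Python 3.11.15.

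Alternatives were DESeq2 1.42.0 (on the tested genes and, chosen after seeing the data, on all genes), limma 3.58.1, other scalings and filters, a replicate block and each mouse left out. The labels do not say that a replicate number marks a shared litter or batch. The precision of a value depends on the counts of its gene, in libraries of 12000261 to 21049763 counts. A p-value sets the difference between the groups against the spread between mice. Pairs of libraries of 1 group differed by more than sampling noise. From each of the 6 pathway lists, the text names up to 3 genes with the smallest edgeR p per direction among those below 0.05. Astrocyte and oligodendrocyte marker lists had 0 of 5 and 0 of 4 genes lower or higher at 0.05. The members and lists were chosen with earlier results of these data known.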

Additional observations from a re-analysis of the deposited data

Results flagged for a closer look

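Each gene and ratio was looked at within the 6 mice of a group for a single mouse that lies far from the other 5, judged by its gap to the nearest mouse over the range of the group against Dixon's critical value. Of 108 such sets, 18 held such a mouse, and chance gives about 1 in 20, or 5.4. In 15 of them it was WT replicate 2 as the highest WT mouse. Among leukocyte genes this was so for Itgb2 (114.6 CPM), Itgax (46.8 CPM), Itgam (41.8 CPM), Fermt3 (37.4 CPM) and Parvg (29.6 CPM). Among the other genes it was so for Tln1 (311.1 CPM), Itgb5 (210.7 CPM), Itgav (190.9 CPM), Itgb1 (129.9 CPM), Itga6 (112.8 CPM), Itga5 (34.1 CPM), Itga1 (31.1 CPM), Itgb3 (11.3 CPM) and Itga2 (3.80 CPM), and for the log2 ratio of Tln1 to Tln2 (0.81).

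The others were Itga7, lowest in WT replicate 5 at 13 CPM, Vcl, lowest in Tet2-KO replicate 6 at 28.5 CPM, and the log2 ratio of Itga1 to Itgb1, lowest in Tet2-KO replicate 6 at -2.19. The sets share mice and genes that move together and are not independent. Tet2-KO replicate 5, on which the overlap of the groups turned, was not among them.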

How the results depend on the processing

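No member passed the adjusted threshold with edgeR under other scalings, other filters or the replicate block. With the block, 16 were lower at an unadjusted p below 0.05, as without it. As lower, 6 passed with DESeq2 on the tested genes, beside 4.63% of all tested genes, and 11 with limma-voom, beside 6.38%. With DESeq2 on all genes 5 passed, beside 1.9% of the 37685 genes with a count. The cause of the difference between tests was not tested. With single mice left out the number was 11 without Tet2-KO replicate 5, beside 7.3% of all tested genes, and 0 without any other mouse. It was 9 with WT replicate 2 and Tet2-KO replicate 5 both left out, beside 4.94%. The members lower at an unadjusted p below 0.05 numbered 11 when WT replicate 2 was left out, and 19 when Tet2-KO replicate 4 was. The share of all tested genes at that threshold was not counted with mice left out. The change in number is therefore not read as a trait of the integrins. Those higher ranged from 0 to 1 (Tln2), and those with separated groups from 0 to 9 (9 without Tet2-KO replicate 5, beside 4.78% of all tested genes separated in that direction). Of the pathway genes 27 (without WT replicate 2) to 50 (without Tet2-KO replicate 4) were lower and 2 to 4 higher with mice left out. With upper quartile scaling 4 were higher. Here too the shares of all tested genes were not counted. The deviations of mice from their group gave no sign that replicate numbers mark pairs. Their correlations lay between -0.169 and 0.230, and only replicate 6 correlated best with its own number. Low correlations cannot show that no mice shared a litter or batch.

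Near 0 the sign was not fixed. Itga10 was at 0.02 with upper quartile scaling and from -0.09 to 0.05 with mice left out. Itga2b was at 0.03 with limma-voom and with upper quartile scaling, and from -0.06 to 0.13 with mice left out. Fermt2 ranged from -0.0015 to 0.05 and Itgb8 from -0.07 to 0.0044. Of the ratios 0 passed with 0.5 CPM added, 0 with the replicate block, whose smallest exact permutation p is 0.0312, and 0 to 11 with mice left out. The ratio of Itgae to Itgb7 was 0.06 with 0.5 CPM added and -0.17 to 0.17 with mice left out. Under all alternatives run, the medians of the leukocyte subunits and of the other subunits stayed below 0.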
